A study of Mus musculus with 2 samples.

Results

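Signals of 7 complement genes were read from 2 Affymetrix arrays hybridised with RNA of mouse cerebral cortex: C1qa, C1qb and C1qc, which encode the 3 chains of complement component C1q, the central component gene C3, and the receptor genes C3ar1, C5ar1 and Itgam. The members were all probe sets carrying 1 of these symbols alone in the platform annotation. This gave 11 probe sets for 6 of the 7 genes, out of 34945 probe sets with 1 symbol and 18193 named genes. C3 was the sole symbol of no probe set in that table and was not analysed here. One array received RNA from mice titled as Gnmt knockouts (the KO pool) and the other RNA from wild-type mice (the WT pool). Each pool was mixed in equal parts from 3 males aged 4 weeks on a 129/B6 background, so each genotype had 1 array and no spread between mice was measured. Gnmt encodes glycine N-methyltransferase, which makes sarcosine from glycine. The genotype entry of the KO-titled sample reads wild-type, so the groups rest on the titles. The Gnmt probe set gave 21.5 units in the KO pool and 10 units in the WT pool, both below the measurement floor of 64.2 units, and so could not check them.

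C1q opens the classical complement pathway. Its 3 chains assemble into a bundle of collagen-like stalks with globular heads, which bind antibody, dying cells and synapses and start the cleavage of C3. In the brain, microglia are the main source of C1q. C3 fragments left on a surface are read by complement receptor 3, a pair of the integrin chains encoded by Itgam and Itgb2, and the small fragments C3a and C5a are read by the receptors encoded by C3ar1 and C5ar1. This route is known for the removal of synapses by microglia in the developing brain.

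The C1q genes lie side by side on chromosome 4 of mouse build GRCm38.p6, in the order C1qb, C1qc, C1qa, within 18719 bases (chr4:136880126-136898844). The sequences before the starts of C1qb (minus strand, chr4:136886201-136886450) and C1qc (minus strand, chr4:136892937-136893164) are shown because these genes had lower signals together in the KO pool. They are taken from the RefSeq promoter table of GRCm38.p6. The C1qc sequence ends 23 bases before the start, where the annotated gene begins. Capitals mark GAGGAA on either strand, the core letters bound by PU.1, the transcription factor of myeloid cells encoded by Spi1.
C1qb: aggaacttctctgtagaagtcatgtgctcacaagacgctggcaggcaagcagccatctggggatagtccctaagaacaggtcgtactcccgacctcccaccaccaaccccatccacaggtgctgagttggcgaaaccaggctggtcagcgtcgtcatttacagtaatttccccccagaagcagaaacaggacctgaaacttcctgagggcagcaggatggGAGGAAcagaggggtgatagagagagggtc
C1qc: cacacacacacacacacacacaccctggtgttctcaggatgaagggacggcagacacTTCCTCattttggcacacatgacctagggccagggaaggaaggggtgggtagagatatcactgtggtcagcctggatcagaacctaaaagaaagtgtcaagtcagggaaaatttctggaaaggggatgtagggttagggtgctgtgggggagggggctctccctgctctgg

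GAGGAA stood 30 to 25 bases before the start of C1qb and, on the opposite strand, 193 to 188 bases before that of C1qc. C1qa had no entry in the promoter table, and 3 of the 6 members with an entry held these letters in the 250 bases before the start, the third being Itgam. Of all 32851 promoters in the table, 23.3% held them in that window. The AP-1 letters TGACTCA were before C3ar1 alone among the 6 and in 4.46% of all. Both strands of all 250 bases were searched for each of the 6 members, including the bases not printed, and these motifs do not share letters where they matched.

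All 3 C1q chains gave lower signals in the KO pool, C1qa by the most. Signals are linear array units, and each ratio is of KO over WT signal on the log2 scale, centred on the median of the probe sets above the floor on both arrays. C1qa, the A chain gene, had 424.5 units in the KO pool and 1474.2 units in the WT pool. That was 3.50-fold lower in the KO pool, a log2 ratio of -1.81. Among 12244 genes measured on both arrays this was the 130th lowest ratio, and 1.05% of genes had a lower one. C1qb, the B chain gene, had 803.1 units in the KO pool and 1521 units in the WT pool by its brightest probe set, which was 1.91-fold lower (log2 ratio -0.93). C1qc, the C chain gene, had 469.9 units in the KO pool and 841 units in the WT pool, 1.80-fold lower (log2 ratio -0.85). Ratios lower than that of C1qb were found in 8.04% of genes, and lower than that of C1qc in 9.69%. Each of the 5 C1q probe sets had its KO signal below its WT signal, and 51.9% of all 20967 measured probe sets with 1 gene had a ratio below 0.

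**Figure D1:**
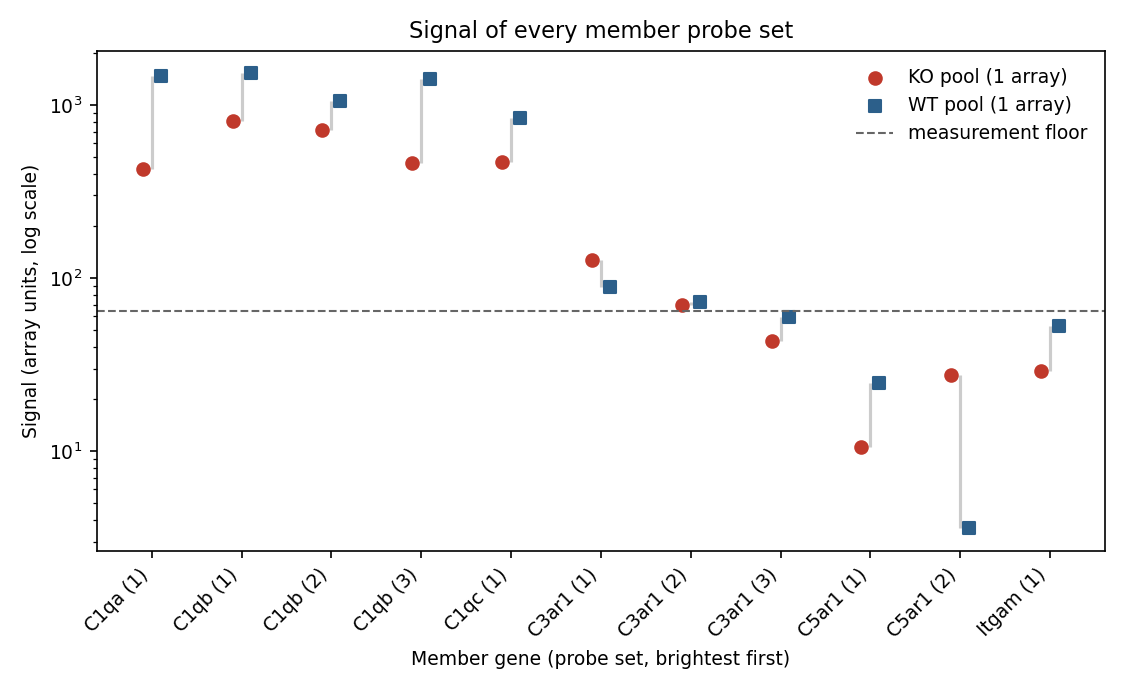
Signal in array units on a log axis for the 11 member probe sets, with the KO pool as circles, the WT pool as squares and the floor of 64.2 units as a dashed line. All 5 C1q probe sets are lower in the KO pool, while the probe sets of the receptor genes lie near or below the floor.

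The probe sets of C1qb differed in size but not in direction. Its second probe set gave 715.7 units in the KO pool and 1048.9 units in the WT pool (1.48-fold lower). The third gave 463.2 units in the KO pool and 1405.5 units in the WT pool (3.06-fold lower). The first and second carry the suffix x, which marks probes that can bind other transcripts, and the third has no suffix and is annotated with a RefSeq transcript. The 3 log2 ratios spanned 1.05 units, between -1.61 and -0.56. Of 2093 genes with at least 3 measured probe sets, 18.5% had all their ratios below 0. C1qa and C1qc had 1 probe set each, both without a suffix.

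The error of a single probe set gives a scale for these differences. It was estimated as 0.58 log2 units (SD, 1.49-fold) from the disagreement between the brightest pair of probe sets of 5375 genes, and covers probe sets on the same RNA, not mice or pools. In units of this SD the ratios were -3.13 for C1qa, -1.62 for C1qb and -1.48 for C1qc. The ratio of C1qa was 0.87 log2 units below that of C1qb and 0.96 below that of C1qc, where the SD of such a difference is 0.82, and C1qb and C1qc differed by 0.08. The larger ratio of C1qa therefore lay close to what probe sets of 1 gene show among themselves. With 1 array per genotype no p-value could be given.

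Of the members, 4 were measured, that is, reached the floor on both arrays, and 3 of them, the C1q chains, were at least 1.5-fold lower in the KO pool. The same fold was passed by 18.2% of all measured genes in the lower direction and by 12.5% in the higher one. Only C1qa passed 2-fold, which 6.75% of genes did in the lower direction. Among 4467 genes with a mean signal like that of the C1q chains the share at least 1.5-fold lower was 18.8%. The median log2 ratio of the measured members was -0.89, against -0.06 over all measured genes. Since the C1q genes are neighbours and their chains are made by the same cells, the 3 are not independent. Of 11776 overlapping runs of 3 measured protein-coding neighbours, 85 (0.722%) were at least 1.5-fold lower throughout. The C1q run is itself among these 85. Since the members were chosen with earlier results of these data known, this share is no test of them.

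**Figure D2:**
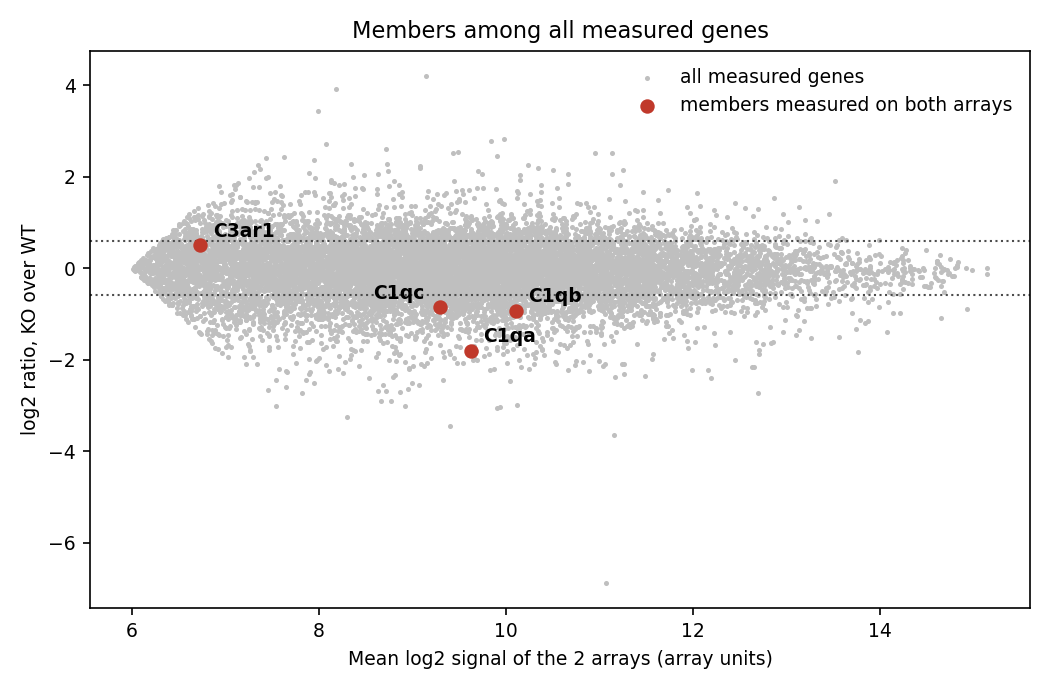
Log2 ratio of KO over WT against the mean log2 signal of the 2 arrays for 12244 measured genes (grey) and the 4 measured members (red), with dotted lines at 1.5-fold. C1qa lies at -1.81, C1qb and C1qc lie together at -0.93 and -0.85, and C3ar1 lies at 0.50 near the dim end.

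None of the 4 nearest measured genes on either side of the C1q genes was 1.5-fold lower in the KO pool. On the side of C1qb the nearest measured genes were Kdm1a, a histone demethylase gene, with 2395.7 units in the KO pool and 3132.6 units in the WT pool (log2 ratio -0.40), and Luzp1 (-0.11). On the side of C1qa they were Epha8, an ephrin receptor gene, and Zbtb40 (0.37). Epha8 had 228.6 units in the KO pool and 65.3 units in the WT pool (1.80), the last just above the floor.

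The receptor genes had signals near or below the floor, and 1 of the 3 could be given a ratio. C3ar1, the C3a receptor gene, had 127.2 units in the KO pool and 89.2 units in the WT pool by its brightest probe set, 1.41-fold higher in the KO pool (log2 ratio 0.50, 0.87 SD of the probe set error). Its second probe set had 70.2 units in the KO pool and 72.6 units in the WT pool (-0.06). The third had 43 units in the KO pool and 59.5 units in the WT pool, both under the floor. The direction for C3ar1 therefore changed from 1 probe set to another, and no difference was resolved.

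Neither C5ar1 nor Itgam reached the floor on any array, so no ratio is given for them. C5ar1, the C5a receptor gene, had 10.5 units in the KO pool and 24.9 units in the WT pool on 1 probe set, and 27.6 units in the KO pool and 3.6 units in the WT pool on the other. These run in opposite directions. Itgam, which encodes the alpha chain of complement receptor 3 (CD11b), had 29 units in the KO pool and 52.7 units in the WT pool, that is 45.2% of the floor in the KO pool and 82.1% in the WT pool. Its partner Itgb2, which encodes the beta chain CD18 and was no member, was measured. Itgb2 had 100.8 units in the KO pool and 202.4 units in the WT pool, 2.02-fold lower (log2 ratio -1.02). The nearest measured genes were, for C3ar1, Foxj2 (0.69) and Slc2a3 (0.22) on 1 side and Necap1 (-0.15) and Clec4a3 (-0.56) on the other. For C5ar1 they were Dhx34 (0.50), Meis3 (0.02), Ccdc9 (0.28) and Inafm1 (0.84), and for Itgam they were Pycard (-0.77), Prss36 (0.12), Cox6a2 (-0.01) and 9130023H24Rik (-0.07). Those around C3 were Tubb4a (-0.21), Crb3 (-0.38), Trip10 (-0.35) and Gpr108 (-0.14).

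Other complement genes gave ratios on both sides of 0. Of 53 other complement genes listed, 43 were named on the array and 22 were measured, of which 3 were at least 1.5-fold lower in the KO pool (18.2% of all genes were) and 5 at least 1.5-fold higher (12.5% of all genes were). Their median log2 ratio was 0.24, against -0.06 over all genes. Of the others, 2 (Cd55 and Cd46) were above the floor in the WT pool alone and 19 were below it in both pools.

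Among genes that start the pathway or build the C3 convertase, 6 of 13 were measured, with 2 higher, 1 lower and a median of 0.43. Cfp, encoding properdin, which stabilises the alternative convertase, had 534.8 units in the KO pool and 301 units in the WT pool, 1.76-fold higher. Fcna and Fcnb, encoding the lectins ficolin A and ficolin B, had log2 ratios of 0.61 and 0.40, and C2, the convertase protease gene, 0.47. Masp1, a lectin pathway protease gene, was 1.57-fold lower (-0.65), with its 5 probe sets between -0.65 and 0.43, and Masp2 had 0.13. The proteases that sit in the C1 complex with C1q were below the floor. C1ra had 40.2 units in the KO pool and 53.2 units in the WT pool, and C1s1 had 59.8 units in the KO pool and 5.4 units in the WT pool. The 6 terminal pathway genes on the array, among them Hc, which encodes C5, were all below the floor in both pools.

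Among complement regulators, 11 of 16 were measured, with 3 higher, 0 lower and a median of 0.23. Csmd1, a neuronal membrane protein gene that limits complement, had 460.3 units in the KO pool and 166.1 units in the WT pool, 2.75-fold higher by 1 measured probe set of 4. Cd59a, which blocks the membrane attack complex, was 1.62-fold higher with its second probe set at -0.13. Susd4, another inhibitor gene of the brain, had 2743 units in the KO pool and 1742.4 units in the WT pool (0.64), with its second probe set at 1.78. The lowest were Clu (-0.21, with its 4 probe sets between -0.44 and 0.14), which encodes clusterin, Vtn (-0.19), which encodes vitronectin, and Cr1l (-0.03), the mouse Crry gene. Cd55, encoding decay-accelerating factor, had 35.4 units in the KO pool, below the floor, and 109.6 units in the WT pool, at least 1.72-fold lower. Cd46 had 45.9 units in the KO pool and 82.3 units in the WT pool, at least 1.29-fold lower.

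Among the other complement receptor genes, 5 of 8 were measured, with 2 lower, 0 higher and a median of 0.11. Itgb2 was described above. Calr, encoding calreticulin, a chaperone of the endoplasmic reticulum that also binds C1q at the cell surface, had 5337.9 units in the KO pool and 14500.6 units in the WT pool, a log2 ratio of -1.45. Lrp1, an endocytic receptor gene, had 0.57. Megf10, an engulfment receptor gene of astrocytes that binds C1q, had 0.25, and Cd93 had 0.11.

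Markers of the cells that make C1q gave mixed ratios. In bulk tissue, fewer cells of a type and less RNA per cell cannot be told apart. Of 30 microglia markers listed, 29 were on the array and 27 were measured, of which 11 were at least 1.5-fold lower in the KO pool, 2 at least 1.5-fold higher and 14 within 1.5-fold. Over all measured genes, 18.2% fell by this fold and 12.5% rose by it. The median log2 ratio of the 27 markers was -0.17, and 18 of 27 lay below 0. Over the 29 on the array the summed signal was 21202.6 units in the KO pool and 23478.6 units in the WT pool. Csf1r alone gave 7830.1 units of the KO sum and 6389.8 units of the WT sum. The lowest was Fcrls, a relative of the Fc receptor genes, with 224.7 units in the KO pool and 914 units in the WT pool (-2.04). It was the only measured marker with a ratio below that of C1qa, while 8 lay below C1qb and 9 below C1qc.

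Among these markers, the 11 lower ones included several that define resting microglia. P2ry12, a purinergic receptor gene, had a log2 ratio of -1.30 and Tmem119 -1.21. Olfml3, Gpr34 and Selplg had -1.22, -1.20 and -1.02, and Siglech and P2ry13 had -0.82 and -0.75. Tyrobp, the adaptor gene of receptor TREM2, had 494.1 units in the KO pool and 976.9 units in the WT pool, 1.99-fold lower. Trem2 itself was under the floor in the KO pool at 13.1 units and had 78.5 units in the WT pool. Hpgds went the other way, with 89.3 units in the KO pool and 10.2 units in the WT pool, at least 1.38-fold higher. Csf1r, the receptor gene for the growth factor that microglia need, had 7830.1 units in the KO pool and 6389.8 units in the WT pool (0.28), with its other probe sets at -0.05 and -0.70. Cx3cr1, the fractalkine receptor gene, was highest at 1.97, by 1 measured probe set of 2, with 343.6 units in the KO pool and 87.2 units in the WT pool, the last near the floor. The other marker at least 1.5-fold higher was Laptm5, with 1410.6 units in the KO pool and 868.9 units in the WT pool (0.69). Its 4 measured probe sets lay between 0.06 and 0.88. Sall1 had 0.39, with its second probe set at -0.11, and Cd53 had 0.32. The transcription factor genes Spi1 and Irf8 had 0.08 and 0.05, and Aif1, which encodes IBA1, -0.05. By its brightest probe set, none of the defining markers Tmem119, P2ry12, Csf1r, Cx3cr1 and Aif1 was below the floor on any array. The part of these markers in the lower C1q signals was not tested.

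**Figure D3:**
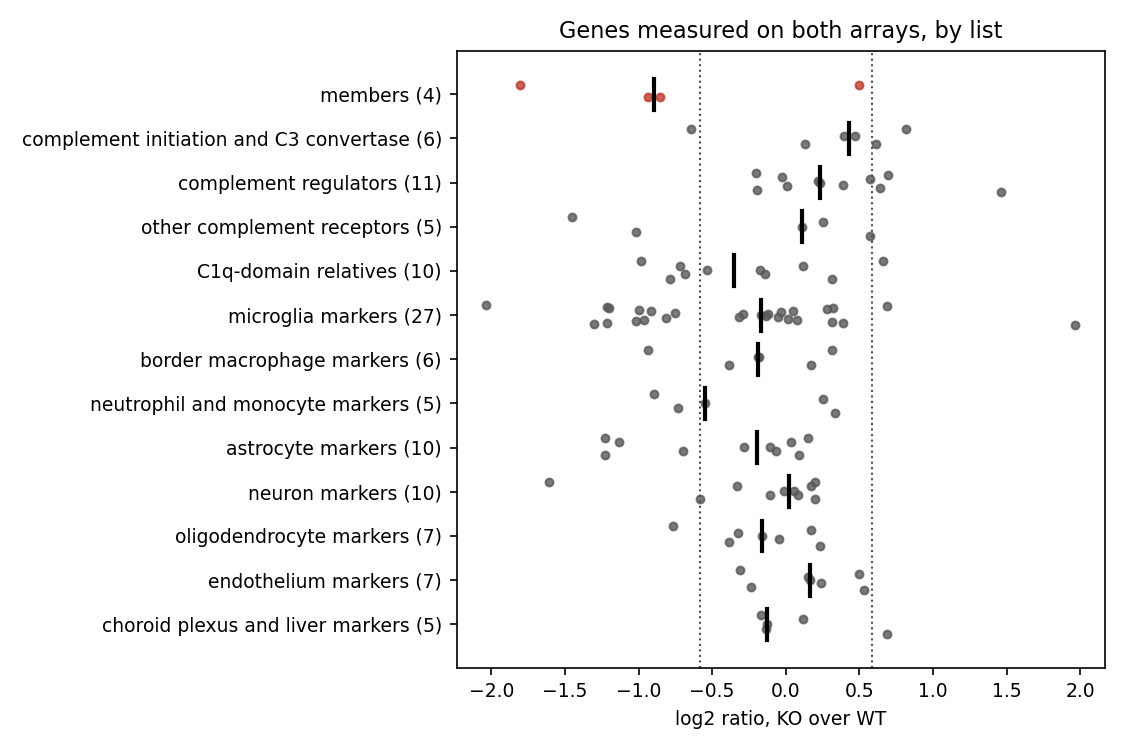
Log2 ratio of KO over WT for each gene measured on both arrays, by list, with the number of genes in brackets, the list median as a black bar and dotted lines at 1.5-fold. The C1q chains lie at the low side with part of the microglia markers, while the medians of the complement initiation and regulator lists are 0.43 and 0.23.

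Markers of other myeloid cells were few and dim. Of 9 border macrophage markers, 6 were measured with a median of -0.19, and 3 (Lyve1, Cbr2 and Ms4a7) were above the floor in the WT pool alone. Mrc1, the mannose receptor gene, was lowest at -0.94, Stab1 highest at 0.32, and Pf4 had -0.18. Their summed signal was 1242.9 units in the KO pool and 1557.4 units in the WT pool. Of 11 neutrophil and monocyte markers on the array, 5 were measured, with Csf3r lowest at -0.90, Ltf highest at 0.33, Ngp at -0.55 and S100a8 at -0.73. Their summed signal was 772.1 units in the KO pool and 872.5 units in the WT pool. Alas2 was the only red blood cell marker measured of 4 (-0.23), and the liver genes Alb, Apoa1, Apoa2, Fga and Fgb were below the floor in both pools.

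Neuronal and glial markers were measured in both pools, which shows brain tissue but not that either pool was cortex alone. Pituitary transcripts were far higher in the WT pool. All 10 neuron markers were measured, with a median of 0.02, Neurod6 lowest at -1.61, Slc17a7 highest at 0.20 and Snap25 at -0.11. For some of them the probe sets disagreed: those of Map2 ran from -2.12 to 2.38 and those of Syt1 from -0.42 to 2.44. Gad2 had a second probe set at 2.01. Astrocyte markers had a median of -0.19 and 4 of 10 at least 1.5-fold lower (18.2% of all genes were), with S100b at -1.23. Slc1a2 had 0.15 (its second probe set at 3.88). Of the 4 lower ones, Aqp4 had its second probe set at 1.60 and Slc1a3 at 0.34. Those of Gfap ran from -1.23 to -1.09 and those of S100b from -1.23 to -0.92. Oligodendrocyte markers had a median of -0.16, with Mobp lowest at -0.76, Cldn11 highest at 0.24 and Mbp at -0.04. Endothelium markers had a median of 0.17, from -0.31 for Tek to 0.53 for Flt1 (its lowest probe set at -0.09), with Slco1a4 also at 0.17. The choroid plexus and liver list ran from -0.16 for Clic6 to 0.69 for Kcne2. Ttr, its brightest gene, had 34817.6 units in the KO pool and 37694 units in the WT pool (-0.13). Anterior pituitary markers summed to 760.3 units in the KO pool and 31448 units in the WT pool over 8 genes, with Gh at 200 units in the KO pool and 23222.9 units in the WT pool, and Tshb at -0.31. The part of that tissue in the C1q values was not tested. Over all probe sets the median signal was 124.9 units in the KO pool and 92 units in the WT pool.

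**Figure D4:**
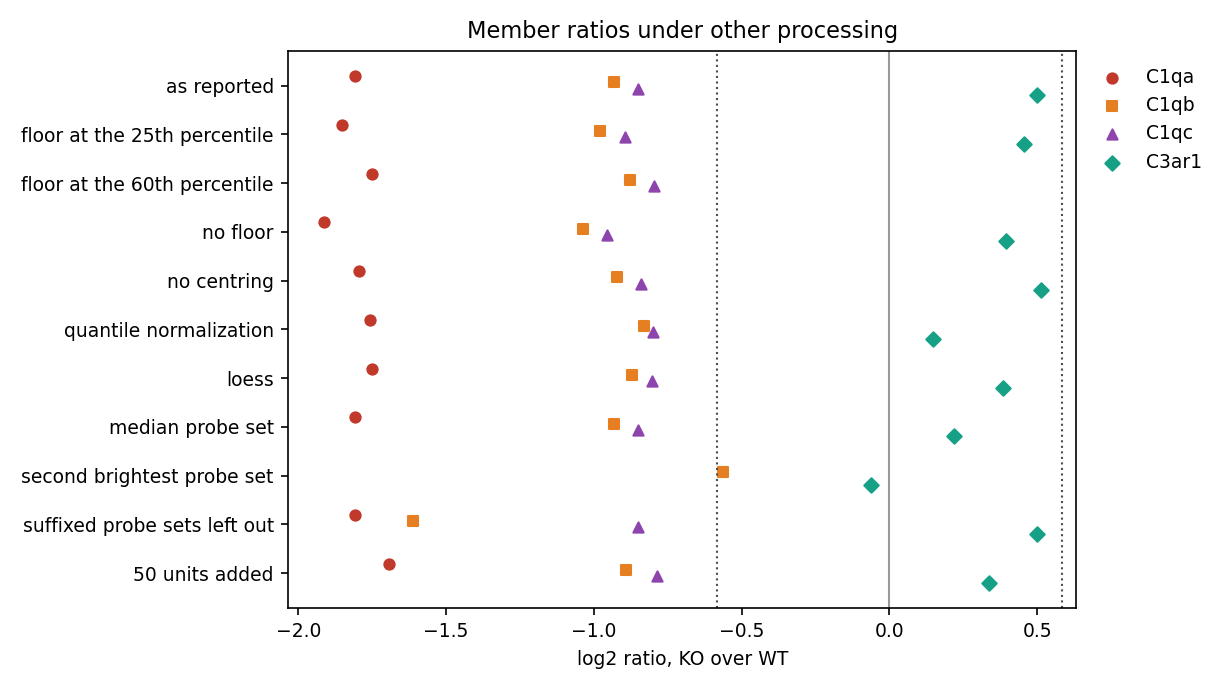
Log2 ratio of KO over WT for C1qa, C1qb, C1qc and C3ar1 as reported and under 10 other settings, with dotted lines at 1.5-fold and a solid line at 0. C1qa and C1qc stay beyond 1.5-fold wherever they have a value, C1qb ranges from -1.61 to -0.56, and C3ar1 ranges from -0.06 to 0.51.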

How the data were processed

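The 2 arrays of pooled cortex RNA were compared. The deposited values are linear intensities per probe set. The submitters' processing notes name GCOS, the Affymetrix software; how it computed the signals is not given here. The mean of each deposited column after trimming 2% at either end was 500.0, so the arrays shared a scale by that mean. Their medians still differed, at 124.9 units in the KO pool and 92 units in the WT pool. A probe set counted as measured at or above the 40th percentile of the 45037 non-control signals of both arrays (64.2 units). Log2 ratios were centred by subtracting 0.01, their median over measured probe sets. A gene took its brightest probe set. A gene over the floor in 1 pool alone got a lower bound, the ratio of its signal to the floor, centred in that way. Of 34945 probe sets with 1 symbol, 34741 matched RefSeq of GRCm38.p6 by gene identifier; 932 had several symbols and 9160 none.

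With 1 array per group no test was made, and precision is limited by having 2 arrays in all. The members and gene lists were chosen with earlier results of these data known. Named genes were all members, the 3 highest and 3 lowest ratios of each complement list and its genes above the floor in 1 pool, the extremes and brightest gene of each marker list, and the 2 nearest measured genes on each side of a member. Other named genes, and the motifs, were chosen after values were seen. Calculations were tested on simulated data. Calculations used pandas 2.3.3 and numpy 2.4.6 under Python 3.11.15, with statsmodels 0.14.6 for loess; figures used matplotlib 3.10.9.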

Additional observations from a re-analysis of the deposited data

How the results depend on the processing

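The alternatives were a floor at the 25th percentile, at the 60th, or no floor (signals below 1 raised to 1), no centring, quantile normalization, loess with a fraction of 0.3, the median or second brightest probe set, suffixed probe sets left out, and 50 units added to every signal. C1qa kept a ratio between -1.91 and -1.69 and C1qc between -0.96 and -0.79 under the 9 settings that gave them a value. C1qb reached -1.61 without suffixed probe sets, by the probe set without a suffix. Without a floor 5 of 6 members were at least 1.5-fold lower, as were 27.2% of all genes. C5ar1 (-1.36) and Itgam (-0.98) then had ratios from signals under the floor, and with the 25th percentile Itgam had -0.92. By second brightest probe sets 0 members were at least 1.5-fold lower, against 19.1% of all genes with one. The median of the members was then -0.31, from the 2 that have one. The median of the other complement genes ranged from -0.13 by second brightest probe sets (9 genes) to 0.39 without suffixed ones, and that of microglia markers from -0.32 to -0.11. No paired analysis was possible because each group had 1 array. Dim signals limit the receptors: their probe sets lay within 2-fold of the floor or under it.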

Other observations

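Genes that share the globular domain of C1q but encode other secreted proteins were read as a list of 22, of which 20 were on the array and 10 were measured. At least 1.5-fold lower in the KO pool were 4 of them (18.2% of all genes were), and 1 was at least 1.5-fold higher (12.5% of all genes were). The median log2 ratio of the 10 was -0.35. C1ql3, which encodes a synaptic organiser of cortical neurons, had 3597.7 units in the KO pool and 5879.6 units in the WT pool (-0.72), with its other probe sets at -0.34 and 0.24. C1ql2, from the same subfamily, had 179.8 units in the KO pool and 307.2 units in the WT pool (-0.78), and Mmrn2, an endothelial matrix gene, had -0.68. Cbln1, the cerebellin gene that bridges synapses, was the higher one at 0.66, with its second probe set at 0.58. C1qtnf4, counted among the 4 lower ones, gave -0.98 by its brightest probe set and 2.75 by its second, so its direction was not resolved.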
